A study of Mus musculus with 9 samples.

Results

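The genes described here are 9 members of the cyclic AMP pathway, chosen by gene name from a table of 26146 genes. They are the phosphodiesterase genes Pde4a, Pde4b, Pde4d, Pde7a and Pde8a, the adenylyl cyclase gene Adcy7, the PKA regulatory subunit gene Prkar1a, and Creb1 and Crem of the CREB family. All 9 were found, each in 1 row.

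Cyclic AMP (cAMP) is a small intracellular messenger. It is made from ATP by adenylyl cyclases, which stimulatory G proteins switch on, and it is cleaved by phosphodiesterases (PDEs). cAMP releases the catalytic subunits of protein kinase A (PKA) from their regulatory subunits, and PKA then phosphorylates the transcription factor CREB. In macrophages, raised cAMP is known to dampen the output of inflammatory cytokines such as TNF, and the PDE4 family is the target of anti-inflammatory inhibitors such as rolipram and roflumilast.

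RNA selected for poly(A) was sequenced from RAW264.7 cells, an established mouse macrophage line transformed by Abelson leukaemia virus, in 9 libraries. By title, 3 libraries were from cells with LPS and an extract, 3 from cells with LPS and 3 from normal cells (Normal). The extract is described, though not in the titles, as one of Traditional Chinese Medicine. LPS (lipopolysaccharide) is a part of the outer membrane of bacteria that Toll-like receptor 4 senses. The labels name no plant, dose or time of exposure. For the treated groups the labels contradict each other: the LPS and extract samples cite table columns M while their libraries are named ET, and the LPS samples cite columns ET while their libraries are named M. The groups are therefore called M and ET after their columns, so that M is LPS with extract by title, and LPS without it by library name. Nothing says that replicates were separate cultures, so p-values measure the spread between these samples, which may be technical.

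Total counts per library were 57796361 to 60881764 in M, 55039858 to 62962615 in ET and 56921531 to 76242718 in Normal. All 6 macrophage markers examined (Csf1r, Adgre1, Cd68, Itgam, Ptprc and Lyz2) exceeded 1 FPKM (sequenced fragments scaled to gene length and library depth) in every library. Their summed level was 1329 to 1343 FPKM in M, 1474 to 1558 in ET and 1685 to 1794 in Normal. The markers did not move together. Csf1r and Lyz2 were lower in every treated library than in every Normal library. Adgre1, Itgam and Cd68 were higher, and Ptprc overlapped. The 6 fibroblast markers summed to 4.13 to 6.13 FPKM in M, 3.07 to 3.57 in ET and 0.0273 to 0.0731 in Normal, mostly from Lum, with Dcn and Lum at 0 counts in Normal and Col1a1 at 0 in M. Of the epithelial and endothelial markers, 3 of 6 were in the table. Their sum, mostly from Pecam1, was 3.20 to 3.55 FPKM in M, 2.78 to 3.24 in ET and 0.77 to 0.95 in Normal. Epcam was at 0 counts in M and Normal. The lymphocyte markers, 2 of 6 in the table, summed to at most 1.38 FPKM in any library. The part of these marker levels in the results below was not tested. Along the component of variance that set M apart from ET, ET replicate 3 lay nearer to M than the other ET libraries, so M and ET are also compared without it. In bulk RNA, more cells expressing a gene and more RNA of it per cell cannot be told apart.

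The sequences below are from members that were higher in both treated groups, other than Crem, which was not searched. Each shows a stretch of 250 bases before a RefSeq transcription start (build GRCm38.p6, plus strand) that holds a cAMP response motif. The motifs are the site TGACGTCA, to which CREB family proteins are known to bind, and its shorter part TGACG, searched on both strands and so also read as CGTCA. Capitals mark them.

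Pde4b, chr4:102421305-102421554: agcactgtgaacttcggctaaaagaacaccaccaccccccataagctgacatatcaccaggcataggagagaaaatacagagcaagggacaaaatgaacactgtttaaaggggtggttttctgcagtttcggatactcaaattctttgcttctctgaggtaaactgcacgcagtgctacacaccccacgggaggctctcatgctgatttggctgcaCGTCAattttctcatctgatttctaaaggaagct
Pde8a, chr7:81213015-81213264: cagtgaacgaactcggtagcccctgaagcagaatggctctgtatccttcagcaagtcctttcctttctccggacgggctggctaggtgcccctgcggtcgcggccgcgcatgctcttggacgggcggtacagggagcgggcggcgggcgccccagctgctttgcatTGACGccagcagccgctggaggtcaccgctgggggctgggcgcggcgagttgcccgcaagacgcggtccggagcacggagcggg
Adcy7, chr8:88282742-88282991: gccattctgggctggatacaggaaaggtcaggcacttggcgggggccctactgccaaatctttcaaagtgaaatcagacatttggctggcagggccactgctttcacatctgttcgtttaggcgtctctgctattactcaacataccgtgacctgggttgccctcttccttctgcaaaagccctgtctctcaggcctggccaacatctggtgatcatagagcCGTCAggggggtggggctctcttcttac
Prkar1a, chr11:109650699-109650948: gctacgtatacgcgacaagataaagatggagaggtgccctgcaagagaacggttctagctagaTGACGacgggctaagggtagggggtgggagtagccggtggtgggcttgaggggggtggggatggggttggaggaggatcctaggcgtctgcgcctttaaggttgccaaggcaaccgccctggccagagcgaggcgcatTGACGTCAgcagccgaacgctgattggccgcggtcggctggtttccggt

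The capitals begin 34 bases before the start in Pde4b, 84 in Pde8a and 28 in Adcy7. In Prkar1a the short motif begins 187 bases before the start and the complete 8-base site 49 bases before it. Start sites of 7 of the 9 genes were searched, with 19 windows in all. Of these, 6 were of Prkar1a, 4 of Pde4b, 3 each of Adcy7 and Pde4a, and 1 each of Creb1, Pde4d and Pde8a. Windows of 1 gene are not independent, so their shares were not tested against those of all genes. Pde7a was not matched. Crem was not searched, because chromosome 18 was left out for the members, though not for the windows of all genes. The short motif was in 7 of these 19 windows, in 5 genes (Adcy7, Pde4a, Pde4b, Pde8a and Prkar1a), against 17.8% of 32851 windows of all genes. The complete site, which contains the short motif, was in 1 of the 19, against 1.55% of all windows. The AP-1 motif TGANTCA was in 1 window (Adcy7; 6.75% of all), and the kappa-B consensus in 3 windows of Adcy7 and Pde4b (7.25% of all). A match describes these letters only. Several genes have many starts, and the table of gene counts does not say which were used.

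The comparisons of M with Normal and of ET with Normal show how each treated group differs from Normal, and they share the same 3 Normal libraries. The extract was also present in M by title, or in ET by library name. In that group LPS and extract cannot be told apart. In both, 5 members rose (Crem, Pde4b, Pde8a, Adcy7 and Prkar1a) and 4 fell (Creb1, Pde4d, Pde7a and Pde4a). For M, 70.0% of the 11536 genes tested were called (35.5% higher and 34.5% lower). For ET, 70.2% were called (35.0% higher and 35.2% lower; edgeR quasi-likelihood test, Benjamini-Hochberg adjusted p under 0.05). A call by itself was therefore common. The median log2 fold change of the 9 genes was 0.36 in M and 0.25 in ET, against -0.0073 and -0.018 over all genes tested. Both medians of the 9 are the value of Prkar1a. Without regard to sign, the median over all genes tested was 0.36 in M and 0.36 in ET. In all 9 genes the treated libraries of either group lay outside the range of the Normal libraries in CPM (counts scaled to library depth with TMM factors), as in 74.8% of all genes for M and 73.2% for ET. A called change of at least 2-fold was reached by Crem and Pde4b, and among all genes by 15.9% in M and 16.0% in ET. All 9 passed the filter of 1 FPKM in at least 3 libraries. However, Pde4b reached it only in the 6 treated libraries, Crem in these and 1 Normal library, and Pde4d only in the 3 Normal libraries, so these passed through the groups where they were high and the filter favoured a difference. All 3 kept their direction and calls without any filter.

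**Figure D1:**
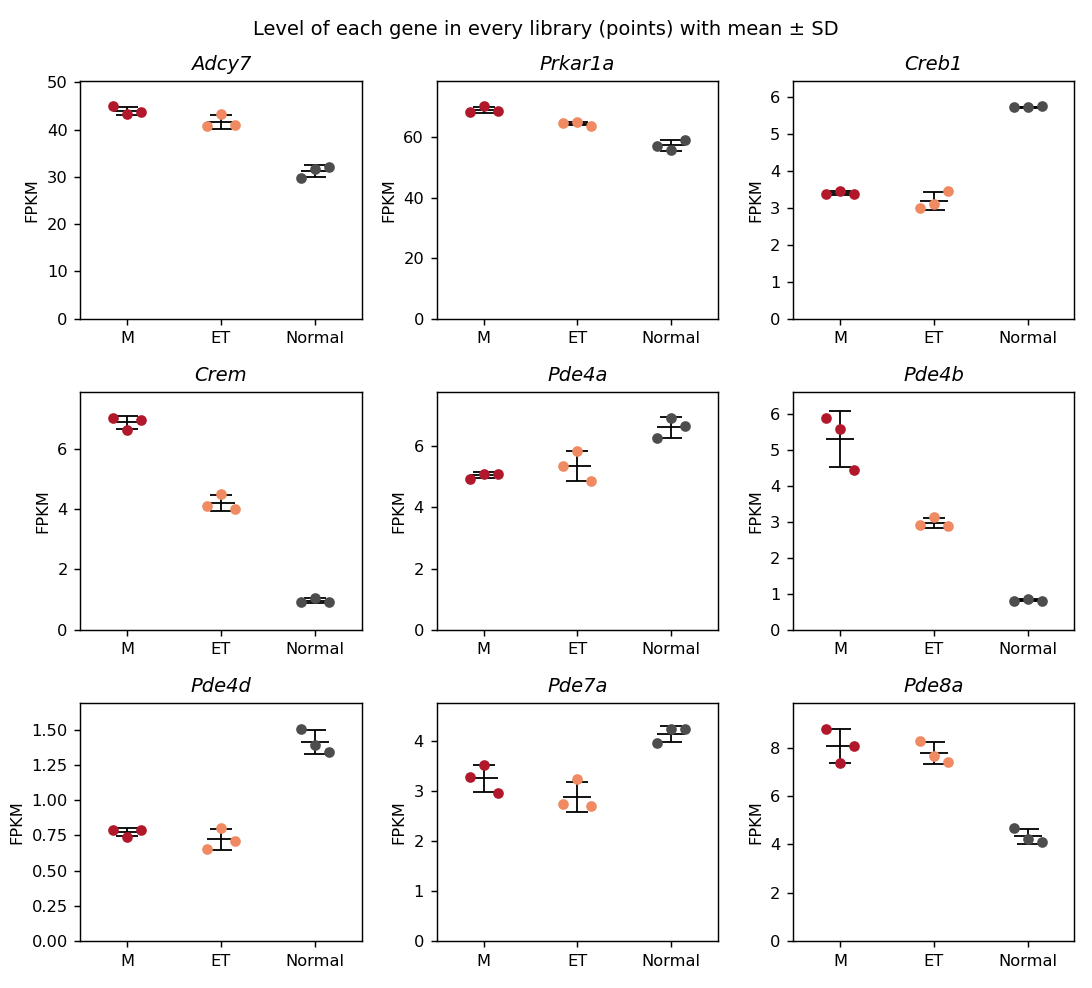
FPKM (vertical axis, from 0) of each of the 9 genes in M, ET and Normal libraries; points are libraries, and bars show the mean ± SD of 3. Crem and Pde4b lie lowest in Normal, between 0.80 and 1.05 FPKM, and highest in M, while Creb1 and Pde4d lie highest in Normal.

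Cyclic AMP synthesis is represented by Adcy7 (ENSMUSG00000031659, chromosome 8, 88272403 to 88329962), an adenylyl cyclase known for its part in macrophages. Its level was 44.9, 43.3 and 43.7 FPKM in M, 40.7, 43.4 and 41.0 in ET and 29.7, 31.7 and 32.1 in Normal. Every treated library lay above every Normal library, and M and ET overlapped in FPKM. Adcy7 was 1.5-fold higher in M than in Normal (log2 0.58 ± 0.039 SE; edgeR adjusted p = 2.97e-08) and 1.41-fold higher in ET (log2 0.49 ± 0.039; edgeR adjusted p = 1.50e-07). Among the adenylyl cyclases it supplied 86.5 ± 0.67% of the summed FPKM in M, 84.8 ± 0.63% in ET and 84.9 ± 0.53% in Normal (SD, n = 3 each). The summed level of these genes was 50.8 ± 0.58, 49.1 ± 1.37 and 36.7 ± 1.70 FPKM in M, ET and Normal.

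Of the other cyclases, 3 were tested. Adcy2 rose to 22.0 ± 0.80 CPM in M and 24.2 ± 1.33 in ET, against 9.46 ± 1.54 in Normal (SD, n = 3 each). Adcy6, a calcium-inhibited form, fell to 3.94 ± 0.57 CPM in M and 3.85 ± 1.23 in ET, against 12.4 ± 0.17 in Normal, and it passed the filter only through the 3 Normal libraries. Adcy9 did not pass (log2 0.11 in M and 0.15 in ET). The other 5 of the 9 listed cyclases in the table stayed under the filter.

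Among the 8 tested cAMP-cleaving phosphodiesterases, Pde4b had the largest log2 fold change (ENSMUSG00000028525, chromosome 4, 102087543 to 102605861). Its product is the PDE4 form known to be needed for full TNF production by LPS-treated mouse macrophages. It stood at 5.90, 5.59 and 4.44 FPKM in M, 2.90, 3.13 and 2.89 in ET and 0.81, 0.86 and 0.80 in Normal. The 3 groups did not overlap, and M replicate 3 was the lowest of its group. In M it was 6.85-fold higher than in Normal (log2 2.78 ± 0.10 SE; edgeR adjusted p = 7.63e-11). In ET it was 3.81-fold higher (log2 1.93 ± 0.10; edgeR adjusted p = 2.40e-09).

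Pde4d and Pde4a, of the same family, went the other way. Pde4d (ENSMUSG00000021699, chromosome 13, 108449948 to 109953461) stood at 0.79, 0.74 and 0.79 FPKM in M, 0.65, 0.80 and 0.71 in ET and 1.51, 1.40 and 1.34 in Normal. It fell by 0.78 ± 0.10 on the log2 scale in M (edgeR adjusted p = 1.61e-05) and by 0.89 ± 0.10 in ET (edgeR adjusted p = 4.94e-06). Pde4a (ENSMUSG00000032177, chromosome 9, 21165714 to 21213248) stood at 4.94, 5.10 and 5.10 FPKM in M, 5.35, 5.85 and 4.87 in ET and 6.26, 6.93 and 6.66 in Normal. Its falls were smaller, by 0.30 ± 0.067 in M and 0.23 ± 0.067 in ET on the log2 scale (edgeR adjusted p = 0.00136 and 0.00846). For both genes every treated library was below every Normal library, and M and ET overlapped.

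The make-up of the PDE4 family therefore differed between groups while its sum differed less. Pde4b made up 50.0, 47.9 and 42.2% of the summed PDE4 FPKM in M, 31.8, 31.4 and 32.9% in ET and 9.18, 9.16 and 8.91% in Normal. Pde4a made up 44.7 ± 3.40% in M, 57.6 ± 1.86% in ET and 73.1 ± 1.58% in Normal, and Pde4d 6.84 ± 0.60%, 7.77 ± 0.53% and 15.7 ± 1.31% (SD, n = 3 each). In M, Pde4b and Pde4a overlapped in FPKM, whereas in ET and in Normal Pde4a lay above Pde4b in every library. In CPM, Pde4b lay above Pde4a in every M library (61.7 ± 9.18 against 42.5 ± 0.62 CPM) and below it in all others. The 4 PDE4 genes summed to 11.3 ± 0.70 FPKM in M, 9.29 ± 0.61 in ET and 9.05 ± 0.28 in Normal. In FPKM the M libraries lay above the others, and ET and Normal overlapped. In CPM, which is not scaled to length, every ET library lay above every Normal library in this sum. The ratio of Pde4b to Pde4d was 6.88 ± 1.10 in M, 4.13 ± 0.27 in ET and 0.58 ± 0.042 in Normal.

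Pde8a (ENSMUSG00000025584, chromosome 7, 81213596 to 81334533) encodes a high-affinity, cAMP-specific enzyme that the common inhibitor IBMX does not block. It stood at 8.80, 7.38 and 8.09 FPKM in M, 8.29, 7.65 and 7.42 in ET and 4.70, 4.23 and 4.10 in Normal. Treated and Normal libraries did not overlap, and it was 1.98-fold higher in M (log2 0.98 ± 0.084 SE) and 1.89-fold higher in ET (0.92 ± 0.084; edgeR adjusted p = 3.20e-07 and 6.23e-07). Pde7a (ENSMUSG00000069094, chromosome 3, 19223108 to 19311322), another cAMP-specific form known from T cells, stood at 3.27, 3.52 and 2.97 FPKM in M, 2.73, 3.23 and 2.70 in ET and 3.96, 4.23 and 4.25 in Normal. It was lower in every treated library. It fell by 0.26 ± 0.084 on the log2 scale in M and by 0.45 ± 0.084 in ET (edgeR adjusted p = 0.0139 and 0.000411). The call in M was lost without M replicate 3 (log2 -0.19; edgeR adjusted p = 0.0732).

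Of 16 genes listed for cAMP-cleaving phosphodiesterases, all in the table, 8 were tested. In M 2 were higher (Pde4b and Pde8a), 5 lower and 1 did not pass. In ET 2 were higher, 4 lower and 2 did not pass. Over all tested genes, 35.5% were higher and 34.5% lower in M, and 35.0% and 35.2% in ET. Pde2a, a form stimulated by cyclic GMP, had the highest level of the 16 in Normal. It stood at 12.9, 11.2 and 10.6 FPKM in M, 11.2, 6.88 and 13.9 in ET and 27.8, 29.3 and 27.8 in Normal, and fell by 1.20 ± 0.18 in M on the log2 scale (edgeR adjusted p = 5.93e-05). Its 3 ET libraries were widely spread. Pde1b, a calmodulin-stimulated form, fell by 0.43 ± 0.12 in M on the log2 scale (edgeR adjusted p = 0.00804), and it did not pass in ET (log2 -0.27; edgeR adjusted p = 0.0643). In ET it was called lower under 5 of 18 alternatives, namely total-count scaling, DESeq2, both limma fits and edgeR without ET replicate 3 (log2 -0.40; edgeR adjusted p = 0.00707). Of the cGMP-specific enzymes, none of the 3 in the table passed the filter. Among them Pde6b, named after its values were seen, had 136 to 158 counts in M, 152 to 283 in ET and 0, 4 and 0 in Normal. The 16 cAMP-cleaving genes summed to 39.8 ± 2.34 FPKM in M, 37.1 ± 3.73 in ET and 53.4 ± 1.63 in Normal, with every treated library below every Normal library. Within that sum Pde4b had a share of 13.3 ± 1.32% in M, 8.09 ± 1.21% in ET and 1.54 ± 0.0076% in Normal, and Pde8a 20.3 ± 1.46%, 21.1 ± 2.5% and 8.13 ± 0.69% (SD, n = 3 each).

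**Figure D2:**
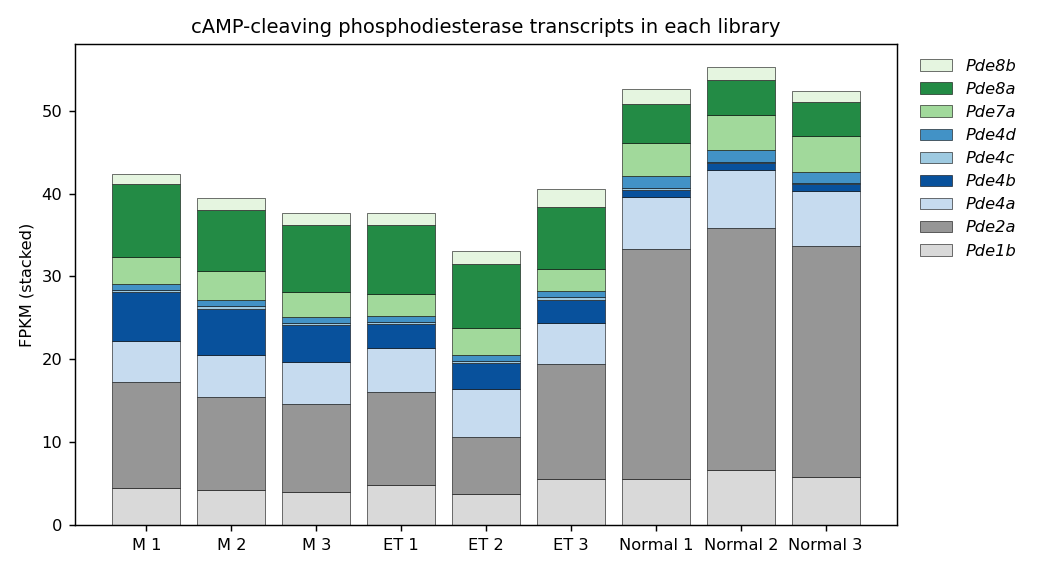
Stacked FPKM (vertical axis) of 9 cAMP-cleaving phosphodiesterase genes in each library of M, ET and Normal; listed genes at under 0.1 FPKM are left out. The bars are lower in treated libraries, mainly by the grey Pde2a part, while the dark blue Pde4b and dark green Pde8a parts are larger there.

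PKA is represented by Prkar1a (ENSMUSG00000020612, chromosome 11, 109649405 to 109669656), a regulatory subunit that holds the catalytic subunits inactive until cAMP binds. Prkar1a had 68.1, 70.1 and 68.6 FPKM in M, 64.7, 64.9 and 63.8 in ET and 57.2, 55.6 and 59.0 in Normal. By FPKM it was the highest of the 9 genes in each group. The 3 groups did not overlap. In CPM, Prkar1a overlapped with Adcy7 in M and in ET. It was 1.28-fold higher in M than in Normal (log2 0.36 ± 0.033 SE; edgeR adjusted p = 7.71e-07) and 1.19-fold higher in ET (0.25 ± 0.033; edgeR adjusted p = 2.31e-05). Its share among the 4 regulatory subunits was 71.8 ± 0.87% in M, 70.2 ± 1.07% in ET and 67.8 ± 0.84% in Normal.

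Of 5 tested PKA subunits, 2 rose and 1 fell in each comparison with Normal, where 70.0% (M) and 70.2% (ET) of all tested genes were called. Prkar2b rose with Prkar1a (log2 0.50 in M and 0.67 in ET). The catalytic subunit gene Prkacb was the 1 that fell in M (log2 -0.12 ± 0.048; edgeR adjusted p = 0.0367). That call was lost without Normal replicate 1, Normal replicate 3 or any M replicate (edgeR adjusted p = 0.0558 to 0.136). The other catalytic subunit gene, Prkaca, was the 1 that fell in ET (log2 -0.23; edgeR adjusted p = 0.000812). Regulatory to catalytic subunits stood in a ratio of 2.34 ± 0.035 in M, 2.34 ± 0.065 in ET and 1.81 ± 0.074 in Normal, by summed FPKM (SD, n = 3 each). Of the genes for small PKA inhibitor proteins, Pkib rose (log2 1.20 in M and 0.62 in ET) and Pkig fell (log2 -0.74 and -0.72). Pkib reached 1 FPKM only in the M libraries and ET replicate 3, so the filter favoured a difference. Its calls against Normal stood without any filter.

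In the CREB family, Creb1 and Crem went opposite ways. Creb1 (ENSMUSG00000025958, chromosome 1, 64532645 to 64604548) encodes the PKA-responsive activator CREB. It stood at 3.37, 3.47 and 3.38 FPKM in M, 3.01, 3.11 and 3.46 in ET and 5.74, 5.73 and 5.76 in Normal. All treated libraries were below Normal, and it fell by 0.66 ± 0.054 on the log2 scale in M and 0.77 ± 0.054 in ET (edgeR adjusted p = 2.01e-07 and 4.83e-08). Crem (ENSMUSG00000063889, chromosome 18, 3266048 to 3337748) encodes activators as well as repressors, among them the short cAMP-induced repressor ICER, and counts per gene do not tell these apart. It stood at 7.02, 6.63 and 6.94 FPKM in M, 4.10, 4.50 and 4.01 in ET and 0.91, 1.05 and 0.92 in Normal. The 3 groups did not overlap. It was 7.43-fold higher in M (log2 2.89 ± 0.079 SE; edgeR adjusted p = 4.22e-12) and 4.52-fold higher in ET (2.18 ± 0.078; edgeR adjusted p = 6.35e-11).

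The ratio of Crem to Creb1 was 2.08, 1.91 and 2.06 in M, 1.36, 1.45 and 1.16 in ET and 0.16, 0.18 and 0.16 in Normal, by FPKM. Per length, Crem thus stood above Creb1 in all treated libraries and below it in all Normal libraries. In CPM, which is not scaled to length, Crem was below Creb1 in the treated libraries too, at 44.7 ± 1.41 against 51.6 ± 0.82 CPM in M and 27.2 ± 1.53 against 47.9 ± 3.61 in ET (SD, n = 3 each). Crem held 22.4 ± 0.66% of the summed FPKM of Creb1, Crem and their relative Atf1 in M, 15.5 ± 0.79% in ET and 3.31 ± 0.32% in Normal. Atf1 did not pass in M or ET (log2 -0.045 and -0.10). Of the co-activators, Crtc2 and Crtc3, which dock on CREB, rose (log2 0.37 and 0.42 in M, 0.25 and 0.24 in ET), Crebbp fell (log2 -0.18 in M), and Crtc1 and Ep300 did not pass. The call of Crtc3 in ET was lost with total-count scaling and with both limma fits (adjusted p = 0.0863 for edgeR, and 0.14 and 0.135 for limma).

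The order of the 9 levels by FPKM differed between groups. In M it ran Prkar1a, Adcy7, Pde8a, Crem, Pde4b, Pde4a, Creb1, Pde7a and Pde4d, with overlap between Pde4b and Pde4a and between Creb1 and Pde7a. In ET it ran Prkar1a, Adcy7, Pde8a, Pde4a, Crem, Creb1, Pde4b, Pde7a and Pde4d, with overlap between Creb1 and Pde4b and between Pde4b and Pde7a. In Normal it ran Prkar1a, Adcy7, Pde4a, Creb1, Pde8a, Pde7a, Pde4d, Crem and Pde4b, and of these neighbours only Pde8a and Pde7a overlapped.

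The comparison of M with ET asks how the treated groups differ, with the extract in M by title and in ET by library name. Of the 9 genes 2 rose, Pde4b and Crem, and 7 did not pass, against 9.08% of all 11536 tested genes called (4.97% higher and 4.12% lower). Their median log2 fold change was 0.11, against 0.0029 over all genes tested and 0.098 over all without regard to sign. Pde4b was 1.80-fold higher in M (log2 0.85 ± 0.093 SE; edgeR adjusted p = 0.000146), with 5.31 ± 0.77 FPKM in M and 2.97 ± 0.14 in ET (SD, n = 3 each). Crem was 1.64-fold higher (log2 0.72 ± 0.071; edgeR adjusted p = 7.44e-05), with 6.87 ± 0.21 and 4.20 ± 0.26 FPKM. All 3 M libraries exceeded all 3 ET libraries in CPM for these genes and also for Adcy7 and Prkar1a, that is for 4 of the 9, against 28.7% of all tested genes without overlap in either direction. No member reached 2-fold between M and ET, as 0.468% of all genes did among those called. Without ET replicate 3 the differences were 0.82 and 0.68 on the log2 scale (edgeR adjusted p = 0.000439 and 0.000251). Without M replicate 3, the lowest M library for Pde4b, its difference was 0.96 (edgeR adjusted p = 1.77e-05).

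**Figure D3:**
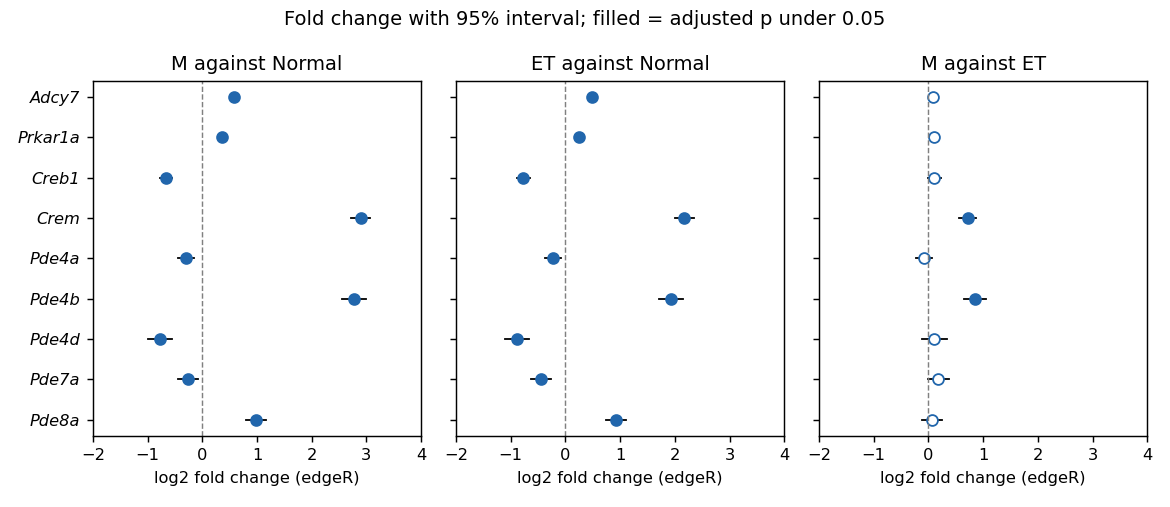
Log2 fold change (horizontal axis) of the 9 genes in the 3 comparisons, with 95% intervals of the edgeR fit as bars; filled points passed at adjusted p under 0.05. All 9 are filled against Normal, and Pde4b and Crem in M against ET.

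For the 7 others the data bound the difference between M and ET. Prkar1a did not overlap between M and ET but missed the threshold (log2 0.11, 95% interval 0.037 to 0.18; edgeR adjusted p = 0.0612, and DESeq2 adjusted p = 0.0461). The intervals on the log2 scale were 0.0038 to 0.17 for Adcy7, -0.013 to 0.22 for Creb1, 9.1e-05 to 0.37 for Pde7a, -0.11 to 0.33 for Pde4d, -0.11 to 0.24 for Pde8a and -0.22 to 0.071 for Pde4a. These intervals are per gene and not adjusted, so that some exclude 0 where the adjusted p did not pass. Creb1 passed when ET replicate 3 was left out (log2 0.16; edgeR adjusted p = 0.0344, against 0.251 with all libraries).

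Around the 9 genes, 85 other genes of the pathway were listed, of which 78 were in the table and 46 tested. Of these, 23 were higher, 14 lower and 9 did not pass in M against Normal, with the same 3 counts in ET, where 70.0% (M) and 70.2% (ET) of all tested genes were called. In M against ET, 5 were higher, 1 lower and 40 did not pass, against 9.08% of all tested genes called. Of the 5 tested receptors that act through stimulatory G proteins, 4 rose in each treated group (median log2 1.05 in M). Among all tested genes, 35.5% rose and 34.5% fell in M, and 35.0% rose and 35.2% fell in ET. The adenosine receptor gene Adora2b rose to 15.1 ± 0.98 CPM in M and 11.7 ± 2.14 in ET, against 4.47 ± 0.35 in Normal. Adora2a had 235 to 312 counts in M, 121 to 198 in ET and 0, 0 and 8 in Normal, and it passed the filter only through the 3 M libraries. Of 3 tested G protein alpha subunit genes, the inhibitory Gnai3 rose (log2 0.30 in M), while the inhibitory Gnai2 (log2 -0.56) and the stimulatory Gnas (log2 -0.22) fell.

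The salt-inducible kinases, PKA substrates that keep the CRTC co-activators in the cytoplasm, rose in all 3 cases, led by Sik3 (log2 1.28 in M) and Sik2 (0.92 in M). Of 7 tested A-kinase anchoring proteins, which place PKA in the cell, 2 rose and 4 fell in M, with Akap13 highest (log2 0.58) and Akap7 lowest (log2 -0.96). For both lists, the shares over all tested genes were 35.5% higher and 34.5% lower in M, and 35.0% and 35.2% in ET. The cAMP-gated exchange factor genes Rapgef3 and Rapgef4 stayed under the filter.

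Of 15 genes known as CREB targets, 11 were tested, of which 9 rose and 2 fell in both M and ET against Normal (median log2 1.80 in M). Over all tested genes 35.5% rose and 34.5% fell in M, and 35.0% rose and 35.2% fell in ET. In M against ET, 4 were higher (Nr4a1, Nr4a2, Nr4a3 and Btg2), 1 lower (Cebpb) and 6 did not pass, with a median log2 of 0.18, against 4.97% higher and 4.12% lower over all tested genes. Btg2 was below Normal in both treated groups (log2 -0.74 in M and -1.13 in ET). Nr4a1, Nr4a2 and Il10 passed the filter only through the 6 treated libraries and Nr4a3 only through the 3 M libraries, so for these 4 the filter favoured a difference. Btg2 and Cebpb were chosen for naming after their values were seen, and the call of Cebpb was lost without ET replicate 2, M replicate 1 or M replicate 2 (edgeR adjusted p = 0.0553 to 0.0724). The nuclear receptor gene Nr4a1 stood at 15.9, 15.2 and 14.7 FPKM in M, 7.94, 7.53 and 6.27 in ET and 0.97, 0.69 and 1.0 in Normal. It was higher in M than in ET by 1.08 ± 0.11 on the log2 scale (edgeR adjusted p = 9.48e-05). Nr4a2 was higher by 1.38 ± 0.12 (edgeR adjusted p = 3.25e-05) and Nr4a3 by 1.77 ± 0.27 (edgeR adjusted p = 0.0017, and 0.00805 without any filter). The anti-inflammatory cytokine gene Il10 had 168 to 174 counts in M, 251 to 294 in ET and 8, 0 and 0 in Normal, and its difference between M and ET did not pass (log2 -0.67; edgeR adjusted p = 0.229). Il10 was called lower in M by DESeq2, by limma on log2(FPKM + 1), by edgeR on the 6 treated libraries alone and without Normal replicate 1. Many of these targets answer to other signals as well. Outside the targets, the PKA inhibitor gene Pkib was the remaining gene called higher in M than in ET (log2 0.58 ± 0.12; edgeR adjusted p = 0.0124). This call was lost without M replicate 1 (log2 0.53; edgeR adjusted p = 0.0532) and with limma on log2(FPKM + 0.1) (log2 0.52; limma adjusted p = 0.0655). Pkib passed the filter only through the 3 M libraries and ET replicate 3, so the filter favoured a difference. Without any filter its edgeR adjusted p was 0.0273.

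**Figure D4:**
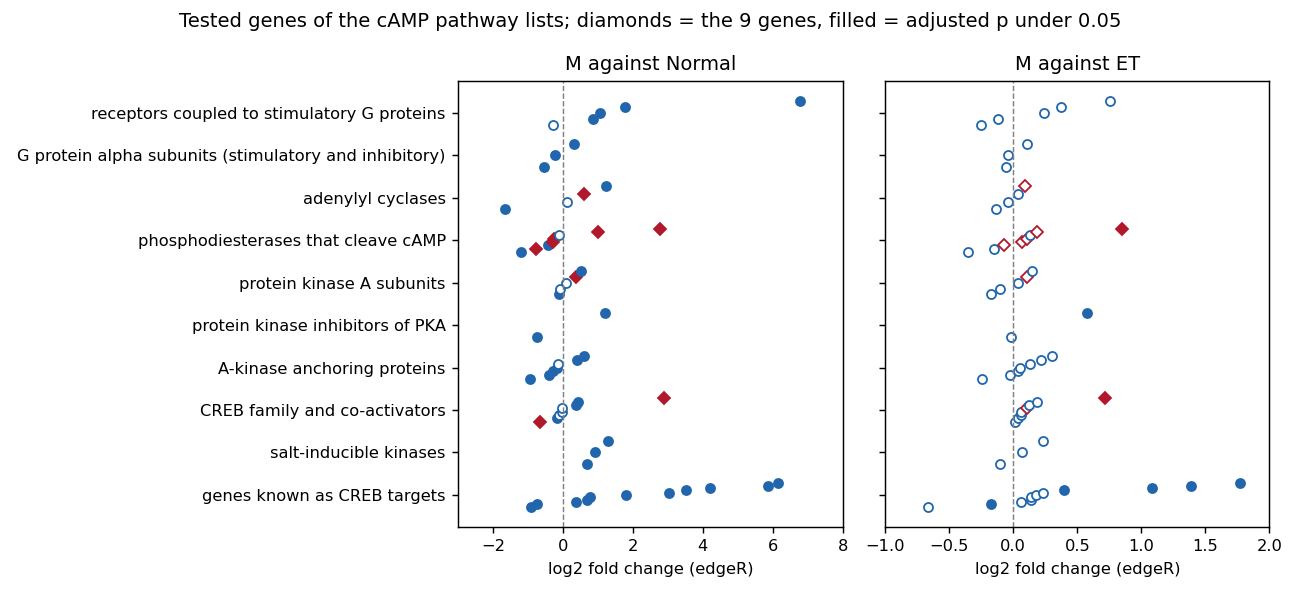
Log2 fold change (horizontal axis) of the tested genes in 10 lists of the cAMP pathway, M against Normal on the left and M against ET on the right; diamonds are genes among the 9, circles other genes, and filled marks passed at edgeR adjusted p under 0.05. On the right, filled marks are Pde4b, Crem, Pkib and 5 of the CREB targets.

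The table's own KEGG annotation gives a wider list, chosen after the values were seen. Its cAMP signaling pathway term held 164 genes, of which 92 were tested, with Adcy7, Creb1, Pde4a, Pde4b and Pde4d among them. In M against Normal 43 rose and 28 fell (77.2% called, against 70.0% of all genes), and in ET against Normal 41 rose and 28 fell (75.0%, against 70.2%). In M against ET 6 rose and 3 fell (9.78%, against 9.08%).

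Each member was also set beside the tested gene with the most similar pattern over the 9 libraries, by the root mean square difference in log2 CPM relative to the Normal mean. For Pde4b this was the predicted gene Gm43197 (0.18), with Crem next (0.20). For Crem it was Bcl2a1d (0.14), an anti-apoptotic gene with near-identical copies that may share reads. None of the 11536 tested genes came within 0.1 of either. The closest genes were Wdr7 for Adcy7 (0.025), Tpm4 for Prkar1a (0.028), Topbp1 for Creb1 (0.035), C030006K11Rik for Pde4a (0.038), Mroh2a for Pde7a (0.063), Trim37 for Pde4d (0.066) and Smpd1 for Pde8a (0.074). For these the number of genes within 0.1 ran from 24 for Pde4d to 561 for Prkar1a.

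Since the strand used in counting is not stated, overlapping genes matter. Crem shares 472 exonic bases with Gm6225 on the other strand, which had 0 to 29 counts per library where Crem had 339 to 2698. Pde7a shares 48 exonic bases with Gm16093, which had 0 to 5 counts. No exonic bases are shared by the other 7 genes in GENCODE M21.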

How the data were processed

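Poly(A) RNA of 9 libraries, 3 in each of 3 groups, was analysed from 1 table. Per the submitters' processing notes, cutadapt 1.9, HISAT2 2.2.1, StringTie 2.1.6, DESeq2 and edgeR were used, with no roles given. Each gene has 1 raw count per library in the deposited table. The FPKM values are, per the file headers, the authors' own. The counting tool, strand setting and genome build are not given in the sources used here. Start and end equalled GENCODE M21 (GRCm38) for 90.1% of genes and for 8 of the 9 members, Pde4b differing at its end.

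Columns were assigned to samples by the FPKM column each label names. The counts of 11536 genes, those reaching 1 FPKM in 3 or more libraries, were tested with edgeR 4.0.16 in R 4.3.3 (quasi-likelihood test, TMM scaling, all groups in a single model). P-values were adjusted by Benjamini-Hochberg over these genes, with a threshold of 0.05. SE is the log2 fold change over the root of F. Within groups, library pairs had chi-squares per gene of 11.3 to 26.2, so none looked like 1 library deposited again. Besides all 9 members, each pathway list could contribute with values the 2 genes with the smallest p in M against ET and the 2 with the largest fold in M against Normal among called genes. The nearest-pattern genes followed a rule of the smallest distance. Any other gene named spells out a list's count. Alternatives used DESeq2 1.42.0, limma 3.58.1, other scalings and filters, a replicate block, 6-library fits and leaving out each library. Members and lists were chosen with earlier results of these data known. Promoter sequences are from RefSeq.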

Additional observations from a re-analysis of the deposited data

How the results depend on the processing

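Over 18 alternatives in 3 comparisons, 482 of 486 values of the 9 genes kept direction and side of the threshold. The 4 others were Pde7a in M against Normal without M replicate 3, Creb1 in M against ET without ET replicate 3, Prkar1a in M against ET with DESeq2, and Pde8a in M against ET, whose log2 values with 1 library left out ran from -0.0024 (without M replicate 1) to 0.13. Pde4b in M against ET ranged over log2 0.66 to 0.96 and Crem over 0.60 to 0.76, called under all 18. Genes called between M and ET numbered 1048, but 615 without a filter, 1682 with DESeq2 and 536 (without ET replicate 2) to 1828 (without ET replicate 3) with 1 library left out. Leaving out ET replicate 1 gave 549, and leaving out M replicate 1, 2 or 3 gave 561, 681 or 537. Of the 1048, 573 were higher and 475 lower, against 339 and 421 with limma on log2(FPKM + 0.1). The counts against Normal stayed within 1.5 times, but their balance moved towards lower with total-count scaling and limma. M had 4101 higher and 3978 lower, against 3460 and 4757 with total-count scaling. ET had 4037 and 4066, against 3473 and 4770, with similar splits by limma. With DESeq2 and without a filter the balance moved slightly towards higher. The higher share of calls was then 51.5 and 53.5% in M, against 50.8%, and 51.4 and 52.7% in ET, against 49.8%. Among other named genes that did not pass, signs turned with 1 library left out, with log2 values of -0.055 to 0.042 for Prkacb in ET against Normal, and in M against ET of -0.12 to 0.32 for Adcy6, -0.11 to 0.36 for Pde2a and -0.049 to 0.010 for Pkig. The cause was not tested. Same-numbered libraries did not deviate together (correlations -0.050 to 0.076), so no pairing by number was seen, though 3 libraries a group cannot exclude it. A replicate block gave 8005, 8039 and 922 calls for M against Normal, ET against Normal and M against ET, changed no call of the 9 genes, and lost that of Prkacb in M against Normal (edgeR adjusted p = 0.0533). CPM in place of FPKM put Pde4b at 53.1% of PDE4 in M, 38.1% in ET and 11.2% in Normal. Pde4d, under 1 FPKM in treated libraries, has the widest interval between M and ET among the 9 genes.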
